A study of Mus musculus with 8 samples.

Results

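Polycystic and wild-type mouse kidneys were compared after both had been given flavopiridol, a comparison that asks how the genotypes differed while the drug was present. It took the 2 libraries labelled PKD_FP and the 2 labelled WT_FP, 4 of the 8 libraries in the series. The other 4, labelled PKD_DMSO and WT_DMSO, enter only to estimate the spread between replicates and to set the genotype difference without the drug beside the one with it. Every library held poly(A)-selected RNA of whole kidney from C57BL/6 mice. PKD_FP kidneys had autosomal dominant polycystic kidney disease and WT_FP kidneys were wild type. FP is read as flavopiridol from the series' design text, and DMSO is the solvent named in the labels of the libraries without it. The sources used here do not give the mutated gene, any Cre or promoter behind the model, the dose, the length of treatment, or the mice's age and sex. Whether replicates came from separate animals is not stated, and the p-values then reflect only how these libraries varied, which may be technical.

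Flavopiridol inhibits cyclin-dependent kinases, among them CDK9. CDK9 pairs with cyclin T in the complex P-TEFb, which phosphorylates RNA polymerase II and the factors that hold it near promoters and so lets transcription go on into the gene. Genes whose transcripts turn over fast, such as immediate-early and survival genes, are known to be sensitive to its loss. In polycystic kidney disease, tubules widen into cysts, cyclic AMP (cAMP) signalling rises, epithelial cells dedifferentiate and divide, and macrophages and fibroblasts collect around the cysts.

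The values were FPKM, which are scaled for transcript length and for the size of the library. They summed to 546995 and 542723 in WT_FP replicates 1 and 2 and to 568822 and 544767 in PKD_FP replicates 1 and 2, within the range of 486060 to 572823 over the series. The number of reads is unknown, and counting intervals are left out for that reason. The ratio most common among low values put the depth of WT_FP replicate 2 at 0.921, PKD_FP replicate 1 at 1.14 and PKD_FP replicate 2 at 1.02 of that of WT_FP replicate 1. Genes at 1 FPKM or more numbered 13216, 13694, 13461 and 13813 in the 4 libraries, and 13919 genes reached that level in at least 2 of them and were tested. A gene under 1 FPKM in both libraries of a genotype could enter only through the other genotype, which fixes its direction. Among the genes named below, Sprr2f, Ccl2, Ccl7, Ccl8, Il6, Lif, Inhba, Inhbb, Mmp7, Trem2, Cd3g, Wnt10a and Wnt7a entered only through PKD_FP. The counts and medians of their lists are set in part by the filter. Mir7049 entered only through WT_FP. All differences below are PKD_FP minus WT_FP on the scale of log2(FPKM + 1), with the standard error of the limma fit. A gene is called at an adjusted p under 0.05 (Benjamini-Hochberg over all genes tested).

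The 4 libraries separated first by genotype and next by replicate number. Component 1 of a principal component analysis carried 70.1% of the variance, with WT_FP at −53 and −29.9 and PKD_FP at 32.9 and 49.9. The second, with 22.4%, put replicate 1 of both genotypes above 0 (20.4 and 26.1) and replicate 2 of both below it (−31.9 and −14.6). Across genes, which do not count as replicates, r was 0.963 between the WT_FP libraries and 0.97 between the PKD_FP libraries. WT_FP replicate 1 correlated more closely with WT_DMSO replicate 2 (0.987) than with its own replicate.

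Markers of fat, urothelium and principal cells followed the replicate number rather than the genotype. Adipoq, which encodes the fat-cell hormone adiponectin, was at 0.75 and 47.3 FPKM in WT_FP and at 1.08 and 6.87 in PKD_FP. Ucp1, the uncoupling protein of brown fat, was at 0.68 and 99.4 FPKM in WT_FP and at 0.35 and 7.34 in PKD_FP. WT_FP replicate 2 thus stood highest in both genes, with PKD_FP replicate 2 next. Over the whole adipocyte list of 18 markers the summed level was 477 and 2523 FPKM in WT_FP and 268 and 536 in PKD_FP. The summed urothelium markers were 61.2 and 326 against 117 and 488 FPKM, and the summed principal cell markers were 954 and 2320 against 1252 and 1699. In each of these lists the ranges of the genotypes overlapped. Results that rest on such genes are given below with and without WT_FP replicate 2. Markers of adrenal cortex (summed 33.8 to 60.3 FPKM) and skeletal muscle (3.19 to 5.5) were low in all 4 libraries.

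Markers of the kidney itself were present in every library, and the proximal tubule markers were the most abundant. Kap, an androgen-regulated gene of the proximal tubule, was at 15475 and 19670 FPKM in WT_FP and at 3039 and 4299.9 in PKD_FP. The 28 proximal tubule markers summed to 32330 and 29368 FPKM in WT_FP and to 7678 and 7570 in PKD_FP, so both polycystic libraries lay below both wild-type ones. Kap is on this list and was a large part of each sum. It was higher in WT_FP replicate 2, whereas Pck1, also on the list, was higher in replicate 1 (2511 and 895 FPKM). The sum can thus hide differences between the WT_FP libraries. The loop and distal convoluted tubule markers summed to 3550.5 and 3306 against 2038 and 1857 FPKM, and those of intercalated cells to 929 and 774 against 580.0 and 504. In the other direction, macrophage and myeloid markers summed to 218 and 258 FPKM in WT_FP and to 1205 and 1674 in PKD_FP. Fibroblast and myofibroblast markers summed to 317 and 459 against 1162 and 1972 FPKM. Lymphocyte markers were far lower, at 14.8 and 19.6 against 60.2 and 113 FPKM. Thy1, which is also on the fibroblast list, was most of the PKD_FP sums (39.6 and 91.0 FPKM). It was a smaller part of the WT_FP sums (2.79 and 4.46 FPKM). Podocyte markers (272 and 242 against 224 and 220 FPKM) and endothelial markers (469 and 802 against 432 and 492) differed little or overlapped. In bulk tissue, fewer cells of a type and less RNA per cell cannot be told apart.

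**Figure D1:**
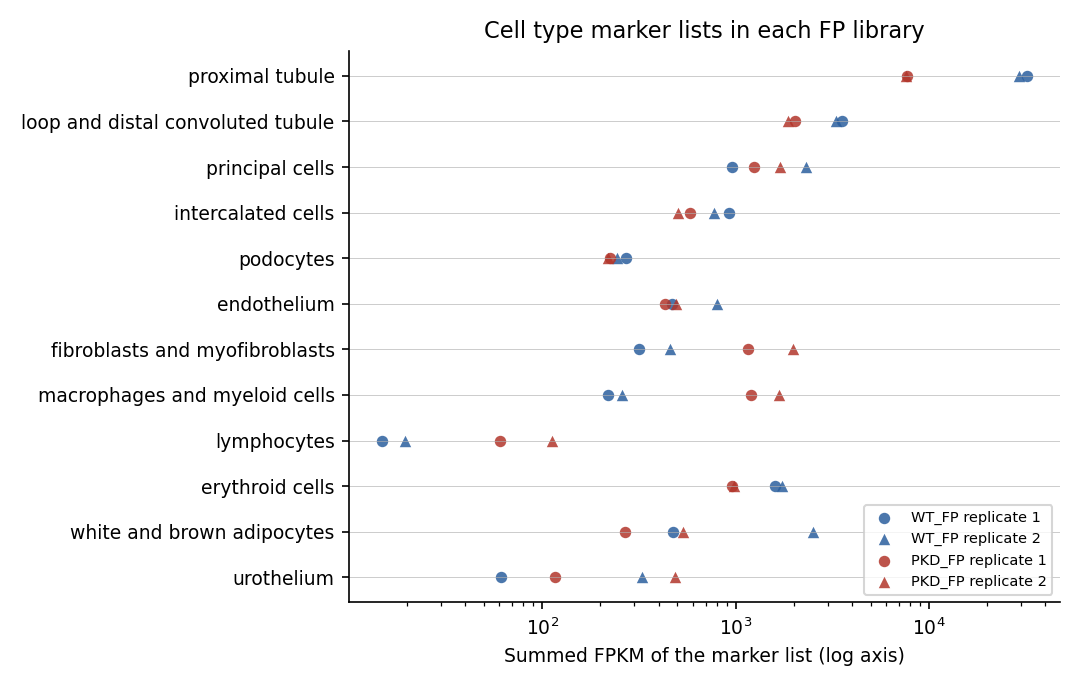
Summed FPKM of each cell type marker list (log axis) in the 4 FP libraries, blue for WT_FP and red for PKD_FP, circles for replicate 1 and triangles for replicate 2. Proximal tubule markers lie lower and macrophage and fibroblast markers higher in both PKD_FP libraries, while the adipocyte list is highest in WT_FP replicate 2 at 2523.

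The genotypes differed widely under flavopiridol. In PKD_FP, 1262 genes were higher (9.07% of those tested) and 773 were lower (5.55%), of which 163 and 101 differed at least 4-fold (1.17% and 0.726%). The median difference over all genes tested was 0.07, with quartiles at −0.28 and 0.41. Groups that did not overlap were more frequent than calls: 4835 genes (34.7%) had both PKD_FP values above both WT_FP values, and 3518 (25.3%) had both below. Higher genes made up 62% of the calls. Without WT_FP replicate 1 the calls numbered 161 higher and 78 lower, without WT_FP replicate 2 they numbered 676 and 453, without PKD_FP replicate 1 they numbered 128 and 69, and without PKD_FP replicate 2 they numbered 104 and 55. No gene called in the full comparison was called in the other direction in any of these.

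**Figure D2:**
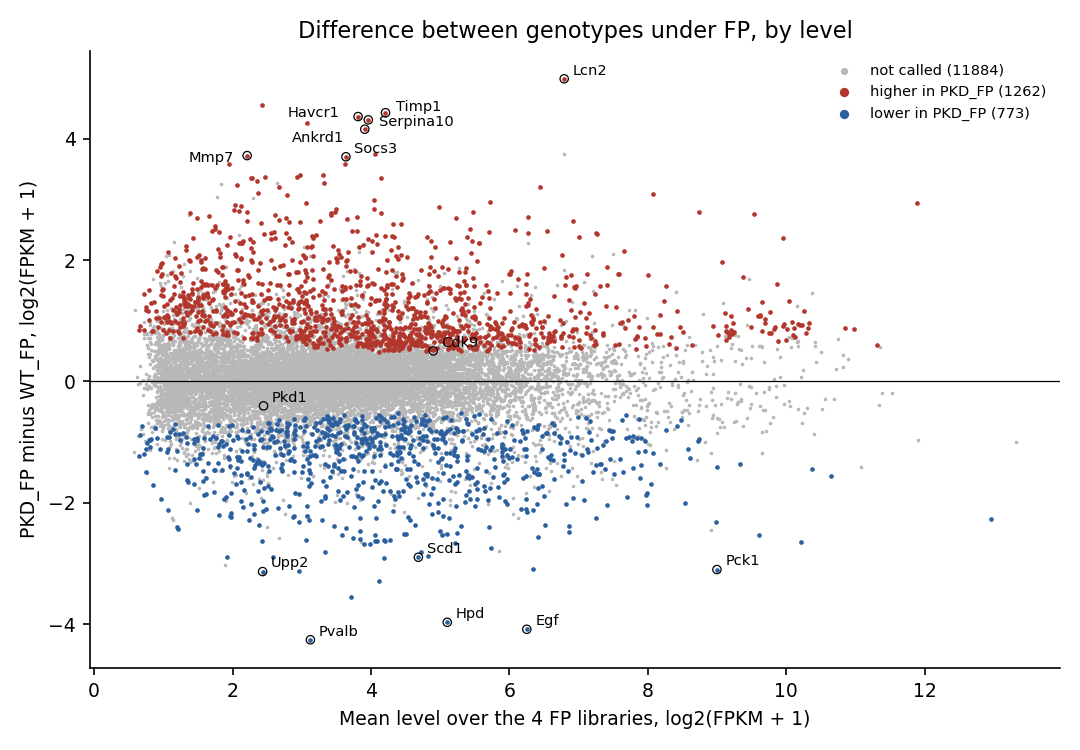
Each point is 1 of 13919 genes, placed by its mean log2(FPKM + 1) over the 4 FP libraries (horizontal axis) and its PKD_FP minus WT_FP difference on the same scale (vertical axis), red for the 1262 higher and blue for the 773 lower genes. The largest differences, such as those of Lcn2 (4.99) and Pvalb (−4.26), occur at all but the highest levels, and Cdk9 and Pkd1 lie among the genes not called.

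Tubule injury genes headed the genes higher in polycystic kidney. Lcn2 (chr2:32384637-32387739 in GRCm38), which encodes the secreted injury marker lipocalin 2, was at 18.0 and 19.3 FPKM in WT_FP and at 476 and 819 in PKD_FP. Its difference of 4.99 ± 0.32 was the largest of all genes called (limma, adjusted p = 0.00294). Havcr1 (chr11:46739822-46779578), which encodes the proximal tubule injury receptor KIM-1, was at 5.14 and 0.56 FPKM against 60.5 and 65.6 (4.37 ± 0.56, adjusted p = 0.00897). For both genes every PKD_FP value lay above every WT_FP value, which the choice of the largest differences required. The WT_FP libraries were close together for Lcn2 and far apart for Havcr1. Timp1 (chrX:20870166-20874737), an inhibitor of metalloproteinases, was at 4.57 and 1.85 FPKM against 61.8 and 117 (4.43 ± 0.44, adjusted p = 0.00467). Serpina10 (chr12:103616675-103631490), which encodes an inhibitor of clotting proteases, was at 3.15 and 1.94 FPKM against 63.4 and 74.0 (4.32 ± 0.26, adjusted p = 0.00294). The replicates of Serpina10 lay close together within each genotype.

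The small proline-rich genes Sprr2f and Sprr2g, whose products line stratified epithelia, were near 0 in wild-type kidney. Sprr2f (chr3:92365187-92366442) was at 0.22 and 0 FPKM in WT_FP and at 18.3 and 34.5 in PKD_FP. Sprr2g (chr3:92373915-92375229) was at 1.56 and 0.45 FPKM against 42.3 and 30.5. Both passed the test (4.57 ± 0.62 and 4.26 ± 0.41), but the Sprr2 genes are near-identical copies, so how reads were split between them is uncertain. With a pseudocount of 0.1 in place of 1 the difference of Sprr2f was 7.14.

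Genes of the stroma, of retinoid synthesis and of leukocyte attraction completed the 12 largest increases. Thy1 (chr9:44043384-44048579), a surface protein of fibroblasts and T cells, was at 2.79 and 4.46 FPKM in WT_FP and at 39.6 and 91.0 in PKD_FP (3.75 ± 0.40, adjusted p = 0.0062). Aldh1a2 (chr9:71215789-71296243), which makes retinoic acid, was at 3.79 and 1.62 FPKM against 35.1 and 49.4 (3.59 ± 0.42, adjusted p = 0.00713). Ccl7 (chr11:82045712-82047525), a chemokine for monocytes, was at 0.07 and 0.16 FPKM against 14.8 and 10.3 (3.59 ± 0.26, adjusted p = 0.00294). That the genotypes did not overlap in these genes was required by their choice. The difference of Ccl7 was 5.89 with a pseudocount of 0.1. Ankrd1, Mmp7 and Socs3, also among the 12, are described below.

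The 12 largest decreases were mostly genes of tubule transport and metabolism. Pvalb (chr15:78191112-78206400), the calcium-binding protein of the early distal convoluted tubule, was at 44.0 and 31.4 FPKM in WT_FP and at 0.84 and 1.16 in PKD_FP. Its difference was −4.26 ± 0.20, and no gene had a smaller adjusted p (limma, 0.00204). Egf (chr3:129677574-129755322), made in the distal nephron, was at 384 and 255 FPKM against 12.4 and 24.6 (−4.09 ± 0.42, adjusted p = 0.00556). Hpd (chr5:123171807-123182723), an enzyme of tyrosine breakdown, was at 141 and 129 FPKM against 6.66 and 8.83 (−3.97 ± 0.23, adjusted p = 0.00254). In all of these genes both wild-type libraries were above both polycystic ones, which the choice of genes required.

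Pck1 (chr2:173153073-173159274), which commits carbon to new glucose, was at 2511 and 895 FPKM in WT_FP and at 143 and 212 in PKD_FP (−3.10 ± 0.53, adjusted p = 0.0165). Slc5a2 (chr7:128265683-128272430), the glucose transporter SGLT2 of the early proximal tubule, was at 334 and 168 FPKM against 21.1 and 34.1 (−3.09 ± 0.38, adjusted p = 0.00826). The WT_FP libraries differed more from each other than the PKD_FP libraries did in both genes, with replicate 1 the higher. Car14 (chr3:95897768-95905117), a membrane-bound carbonic anhydrase, was at 81.0 and 35.0 FPKM against 4.24 and 4.84 (−3.30 ± 0.44). Upp2 (chr2:58566317-58795846), a uridine phosphorylase, was at 16.2 and 13.9 FPKM against 0.41 and 1.36 (−3.14 ± 0.42).

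The detoxifying and lipid enzymes among the 12 were Ugt1a10, Fmo2, Mogat2 and Scd1. Fmo2 (chr1:162874317-162898758), a flavin-containing monooxygenase, was at 73.1 and 33.2 FPKM in WT_FP and at 7.61 and 4.15 in PKD_FP (−2.92 ± 0.45, adjusted p = 0.0134). Ugt1a10 (chr1:88055411-88220002) was at 58.2 and 33.0 FPKM against 4.33 and 1.75 (−3.55 ± 0.67, adjusted p = 0.0209). It shares exons with the other Ugt1a genes, so its level is uncertain. Mogat2 (chr7:99219084-99238611), which makes diacylglycerol, was at 25.3 and 9.26 FPKM against 0.99 and 1.43 (−2.90 ± 0.47). Scd1 (chr19:44394450-44407709), a fatty acid desaturase that fat also expresses, was at 44.3 and 108 FPKM against 9.42 and 7.52 (−2.90 ± 0.48), and at −2.27 without WT_FP replicate 2, the library with the high adipocyte markers. BC024386 (chr7:140906021-140907983) was at 85.2 and 66.6 FPKM against 7.7 and 11.5 (−2.87 ± 0.36).

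Of these 24 genes, 19 passed the test without WT_FP replicate 1, 24 without WT_FP replicate 2, 11 without PKD_FP replicate 1 and 13 without PKD_FP replicate 2. Havcr1 (4.43 and 4.31), Pck1 (−2.82 and −3.38) and Scd1 (−3.04 and −2.75) lost the call without either PKD_FP library, with differences close to those of all 4 libraries.

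**Figure D3:**
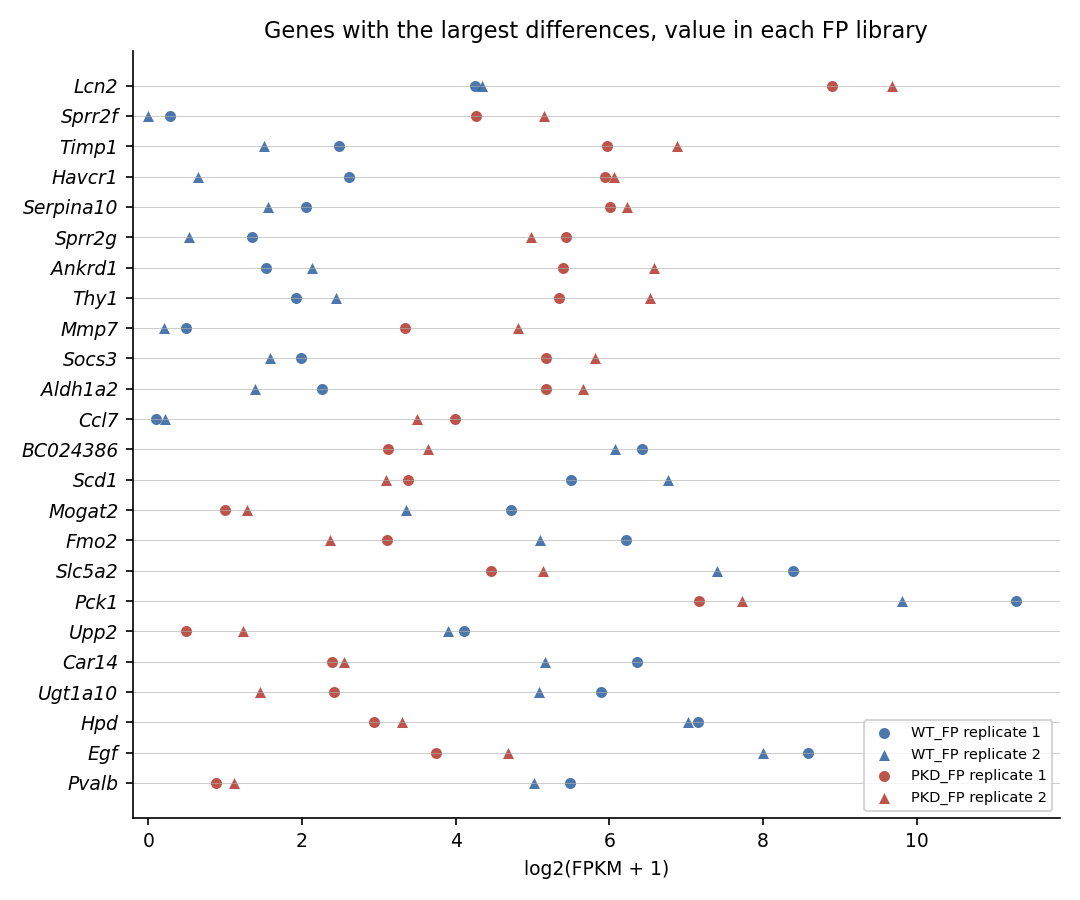
Level of the 12 genes with the largest increases and the 12 with the largest decreases, in log2(FPKM + 1), in each of the 4 FP libraries (blue WT_FP, red PKD_FP, circles replicate 1, triangles replicate 2). The colours do not overlap in any gene, which the choice of genes required, and the gap is widest for Lcn2.

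Most genes of the tubule injury list were higher in PKD_FP. Its members, like those of all lists, were chosen with earlier results of these data known. One of them, Mmp7, entered only through PKD_FP. Of 31 members tested, 28 were higher in PKD_FP (90.3%) and 0 lower, with a median difference of 2.07. Over all genes tested, the base for every list below, 9.07% were higher and 5.55% lower, with a median of 0.07. The calcium-binding protein gene S100a6 was at 38.8 and 214 FPKM in WT_FP and at 638 and 961 in PKD_FP (3.08 ± 0.72, adjusted p = 0.0362), and at 1.87 without WT_FP replicate 1. Its call was lost in 8 of 17 alternatives, among them without WT_FP replicate 1 and without either PKD_FP library. The claudin gene Cldn4, a tight junction gene of distal epithelium, was at 17.8 and 47.3 FPKM against 208 and 185 (2.71 ± 0.40, adjusted p = 0.0124). Of the 28 calls, 12 were also made without WT_FP replicate 1, 27 without WT_FP replicate 2, 9 without PKD_FP replicate 1 and 7 without PKD_FP replicate 2. The median stayed between 1.71 and 2.32 in these.

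Promoter sequence is shown for 2 of the 12 genes with the largest increases, 1 from the list of Hippo and YAP targets (Ankrd1) and 1 from the injury list (Mmp7). Each is the 250 bases before the RefSeq gene start, 5′ to 3′ on the gene's strand, from GRCm38.p6. In Ankrd1, chr19:36119845-36120094 on the minus strand, the capitals mark a match to the letters of a TEAD site (CATTCCA, here on the opposite strand) at 124 bases before the start. In Mmp7, chr9:7691840-7692089 on the plus strand, they mark an AP-1 match (TGANTCA) at 63 bases.
Ankrd1: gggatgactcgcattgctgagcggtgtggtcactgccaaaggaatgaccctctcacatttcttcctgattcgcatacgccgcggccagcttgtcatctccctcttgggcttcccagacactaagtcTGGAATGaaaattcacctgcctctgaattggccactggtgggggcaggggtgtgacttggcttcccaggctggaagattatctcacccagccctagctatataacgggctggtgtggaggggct
Mmp7: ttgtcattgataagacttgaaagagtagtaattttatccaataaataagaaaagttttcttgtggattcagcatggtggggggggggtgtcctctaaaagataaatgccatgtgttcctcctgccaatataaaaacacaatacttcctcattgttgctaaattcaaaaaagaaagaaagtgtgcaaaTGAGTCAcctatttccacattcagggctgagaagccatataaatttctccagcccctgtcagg

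The motifs and these genes were chosen after the values had been seen, and a match describes letters only. Both strands were searched in the 250 bases before each start in the RefSeq table, which lists more than 1 start for some genes. Among 13365 such windows of 10495 genes tested, 6.07% held the letters of a STAT site (TTCNNNGAA), 2.69% the TEAD letters and 4.73% the AP-1 letters. Among the 1192 windows of genes called higher the shares were 6.96%, 2.85% and 6.88%, and among the 779 of genes called lower 5.13%, 2.82% and 4.36%. The cAMP response element (TGACGTCA) was in 2.49% of windows of genes tested, 2.01% of those called higher and 2.18% of those called lower. The AP-1 letters were in 6 of 30 windows of the tubule injury list and in 0 of 33 of the immediate-early list. The TEAD letters were in 3 of 25 windows of the Hippo and YAP list, and the STAT letters in 1 of 21 of the IL-6 and STAT3 list.

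Transcripts of several genes of the interleukin-6 and STAT3 list were higher in polycystic kidney. Socs3 (chr11:117966079-117970336), which is induced by STAT3 and restrains it, was at 2.95 and 2.01 FPKM in WT_FP and at 35.0 and 55.3 in PKD_FP (3.71 ± 0.25, adjusted p = 0.00294). The cytokine gene Lif was at 0.62 and 0.17 FPKM against 5.0 and 8.75 (2.47 ± 0.33, adjusted p = 0.00987), and Il6 was listed at 0 in both WT_FP libraries and at 1.42 and 4.71 FPKM in PKD_FP (adjusted p = 0.0248). Osmr, the oncostatin M receptor, was at 4.58 and 5.03 FPKM against 19.2 and 27.9 (2.06 ± 0.34). No value of these genes overlapped between the genotypes. The level filter required this of Lif and Il6, and the choice of the largest differences required it of Socs3. Of all genes tested, 34.7% had both PKD_FP values above both WT_FP values. Of 18 genes tested on the IL-6 and STAT3 list, 8 were higher (44.4%, against 9.07% of all genes) and 1 lower (5.56%, against 5.55%). The list's median of 1.11 was 0.57 without WT_FP replicate 1 and at most 1.51. Of these 9 calls 4, 6, 3 and 3 were kept without WT_FP replicates 1 and 2 and PKD_FP replicates 1 and 2.

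Of 29 immediate-early genes tested, 19 were higher (65.5%, against 9.07% of all genes) and 0 lower, with a median of 1.48. Egr1, a zinc-finger factor induced by growth factors, was at 2.59 and 7.24 FPKM in WT_FP and at 34.1 and 35.2 in PKD_FP (2.71 ± 0.35, adjusted p = 0.00933). Fos was at 0.65 and 1.08 FPKM against 9.01 and 12.6 (2.65 ± 0.23, adjusted p = 0.00396), and Atf3, a stress-induced factor, at 0.99 and 1.32 against 9.88 and 14.9 (2.61 ± 0.28, adjusted p = 0.00593). All 3 were low in both WT_FP libraries and above them in both PKD_FP libraries. Without WT_FP replicate 1, WT_FP replicate 2, PKD_FP replicate 1 or PKD_FP replicate 2, calls were kept for 9, 17, 6 and 5 of the 19.

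Macrophage, chemokine and complement genes were each higher in polycystic kidney. These lists are not separate, since C1qa, C1qb and C1qc are on both the macrophage and the complement list. Trem2, a receptor of tissue macrophages, was at 0.48 and 0.99 FPKM in WT_FP and at 14.8 and 19.0 in PKD_FP (3.38 ± 0.33, adjusted p = 0.00467). Lyz2, which encodes the lysozyme of myeloid cells, was at 24.4 and 31.3 FPKM against 217 and 319 (3.20 ± 0.40, adjusted p = 0.00835), and Fcgr3, an antibody receptor, at 5.45 and 4.34 against 34.6 and 60.6 (2.996 ± 0.34). The polycystic libraries lay above the wild-type ones in each, with replicate 2 the higher of the PKD_FP pair. For Trem2 the level filter required this separation, which 34.7% of all genes tested also had. Of 27 macrophage and myeloid genes tested, 20 were higher (74.1%, against 9.07% of all genes) and 0 lower, with a median of 2.22. Calls were kept for 4 and 12 of these 20 without WT_FP replicates 1 and 2, and for 4 and 2 without PKD_FP replicates 1 and 2.

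Of 30 chemokine and receptor genes tested, 18 were higher (60%, against 9.07% of all genes) and 0 lower, with a median of 1.93. Some of them, among them Ccl2, Ccl7 and Ccl8, reached the level filter only through PKD_FP, so the number called is set in part by the filter. Ccl2, the main monocyte attractant, was at 0.83 and 0.27 FPKM in WT_FP and at 15.5 and 13.9 in PKD_FP (3.36 ± 0.23, adjusted p = 0.00294). Cxcl1, which draws neutrophils, was at 1.93 and 2.55 FPKM against 20.7 and 43.8 (3.27 ± 0.35, adjusted p = 0.00602), and Ccl12 at 1.79 and 2.22 against 19.2 and 25.3 (2.95 ± 0.30, adjusted p = 0.00511). Ccl8 was at 0.53 and 0.72 FPKM against 9.09 and 24.4 (3.30 ± 0.43). These genes moved with the macrophage marker sum given above (218 and 258 against 1205 and 1674 FPKM), and the part of cell number in them was not tested.

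Complement and acute-phase genes followed, with 10 of 20 tested higher (50%, against 9.07% of all genes), 0 lower and a median of 1.30. C1qa, a chain of the complement initiator C1q made by macrophages, was at 28.1 and 27.0 FPKM in WT_FP and at 140.5 and 183 in PKD_FP (2.50 ± 0.35, adjusted p = 0.0109). Cfi, a protease that limits complement, was at 2.1 and 1.13 FPKM against 16.7 and 10.5 (2.47 ± 0.26, adjusted p = 0.00593). Of 8 genes of MHC class II presentation tested, 5 were higher (62.5%) and 0 lower, with a median of 1.37. The cathepsin gene Ctss, also on the macrophage list, was among the 5. Cd74, the invariant chain of class II molecules, was at 99.6 and 74.0 FPKM against 264 and 168 (1.29 ± 0.31, adjusted p = 0.0376), a call lost when any 1 of the 4 FP libraries was left out. Of the 10 complement calls, 4, 7, 3 and 2 were kept without WT_FP replicates 1 and 2 and PKD_FP replicates 1 and 2, and of the 5 class II calls 1, 1, 0 and 1.

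Few interferon response genes were called (3.12% in each direction, against 9.07% higher and 5.55% lower of all genes). Of 32 tested, 1 was higher and 1 lower, with a median of 0.20, and neither call was kept when any 1 of the FP libraries was left out. The guanylate-binding protein gene Gbp2 was at 2.86 and 3.92 FPKM in WT_FP and at 7.36 and 6.34 in PKD_FP (0.85 ± 0.21, adjusted p = 0.0404), and the antiviral enzyme gene Oas3 at 5.2 and 5.21 against 2.74 and 2.34 (−0.81 ± 0.18, adjusted p = 0.0297). Of the 21 lymphocyte markers, 13 did not reach the level filter. Some of the 8 that did reached it only through PKD_FP, so the number called is set in part by the filter. Cd3g, a chain of the T cell receptor complex, was at 0.91 and 0.42 FPKM against 3.86 and 4.52 (1.65 ± 0.22, adjusted p = 0.00968).

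Several collagen genes were higher in polycystic kidney. Col1a1, the main chain of type I collagen, was at 49.9 and 61.7 FPKM in WT_FP and at 229 and 371 in PKD_FP (2.37 ± 0.50, adjusted p = 0.0274). Col3a1 was at 62.1 and 68.4 FPKM against 231 and 549 (2.43 ± 0.61, adjusted p = 0.0429), and Col12a1 at 1.27 and 1.84 against 14.2 and 15.8 (2.66 ± 0.49, adjusted p = 0.0197). PKD_FP replicate 2 was the highest library in each. Of 35 collagen and matrix genes tested, 8 were higher (22.9%, against 9.07% of all genes) and 2 lower (5.71%, against 5.55%). The list's median was 1.18. Of these 10 calls, 0 were kept without WT_FP replicate 1, 2 without WT_FP replicate 2 and 0 without either PKD_FP library, while the median stayed between 0.86 and 1.43.

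Acta2, the smooth muscle actin of myofibroblasts, was at 19.6 and 51.4 FPKM in WT_FP and at 180 and 179 in PKD_FP (2.46 ± 0.58, adjusted p = 0.0375). Tagln, an actin-binding protein of the same cells, was at 38.2 and 59.1 FPKM against 264 and 349 (2.65 ± 0.49, adjusted p = 0.0201). Of 19 fibroblast and myofibroblast genes tested, 5 were higher and 0 lower, with a median of 0.93, and 1, 3, 1 and 1 of the calls were kept without WT_FP replicates 1 and 2 and PKD_FP replicates 1 and 2.

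Among the metalloproteinases and their inhibitors, 7 of 20 tested were higher and 1 lower, with a median of 0.86, and 3, 6, 1 and 1 of these calls were kept without WT_FP replicates 1 and 2 and PKD_FP replicates 1 and 2. Mmp7 (chr9:7692090-7699585), a matrix protease made by injured tubules, was at 0.41 and 0.15 FPKM in WT_FP and at 9.14 and 27.0 in PKD_FP (3.73 ± 0.44, adjusted p = 0.00713). Mmp14, a membrane-bound collagenase, was at 11.6 and 12.5 FPKM against 58.7 and 69.8 (2.31 ± 0.32, adjusted p = 0.0103). For Mmp14 the replicates lay close together, whereas the Mmp7 values of PKD_FP were far apart.

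Activin and TGF-beta ligand genes were higher in polycystic kidney. Inhba and Inhbb, which encode the subunits of activins, were at 0.51 and 0.51 FPKM and at 0.8 and 0.73 FPKM in WT_FP. In PKD_FP, Inhba was at 10.4 and 19.97 FPKM (3.36 ± 0.31, adjusted p = 0.00441) and Inhbb at 10.9 and 18.3 (3.10 ± 0.40, adjusted p = 0.00933). Tgfb2 was at 1.2 and 1.52 FPKM against 6.51 and 6.57 (1.68 ± 0.30, adjusted p = 0.0178). Polycystic values exceeded wild-type ones in each gene, which the level filter required of Inhba and Inhbb. The same separation held for 34.7% of all genes tested. Tgfbi, a matrix protein that TGF-beta induces, was at 12.4 and 7.16 FPKM against 42.1 and 40.5 (2.02 ± 0.33, adjusted p = 0.0153). Of 32 genes of the TGF-beta, activin and BMP list tested, 10 were higher and 0 lower, with a median of 0.71, and 4, 9, 1 and 1 of the calls were kept without WT_FP replicates 1 and 2 and PKD_FP replicates 1 and 2.

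Targets of the Hippo effector YAP ranged from near 0 to large differences. Ankrd1 (chr19:36111965-36119844) was at 1.89 and 3.38 FPKM in WT_FP and at 41.2 and 94.8 in PKD_FP (4.16 ± 0.41, adjusted p = 0.00467). Cyr61, a matrix-associated growth regulator, was at 17.1 and 14.8 FPKM against 103 and 130.0 (2.79 ± 0.39, adjusted p = 0.0105), and F3, which encodes tissue factor, at 9.62 and 13.3 against 64.0 and 62.5 (2.38 ± 0.20, adjusted p = 0.00396). Of 24 tested, 6 were higher (25%, against 9.07% of all genes) and 0 lower. All 24 differences were above 0, with a median of 0.61. Of the 6 calls 2, 4, 2 and 2 were kept without WT_FP replicates 1 and 2 and PKD_FP replicates 1 and 2.

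Growth factor genes split by family member. While Egf was lower, the EGF receptor ligand gene Hbegf was at 8.38 and 9.75 FPKM in WT_FP and at 35.0 and 48.3 in PKD_FP (2.07 ± 0.23, adjusted p = 0.00641). Nrg1, a ligand of ERBB receptors, was at 2.63 and 1.78 FPKM against 16.4 and 6.74 (1.87 ± 0.41, adjusted p = 0.0311). Of the 13 genes of the EGF list tested, 3 were higher (23.1%, against 9.07% of all genes) and 1 lower (7.69%, against 5.55%). In the Wnt list 5 of 33 were higher (15.2%) and 0 lower, with a median of 0.40 (0.09 without WT_FP replicate 1). The 4 calls of the EGF list were kept in 2, 2, 2 and 3 genes and the 5 of the Wnt list in 1, 3, 0 and 0 without WT_FP replicates 1 and 2 and PKD_FP replicates 1 and 2. The ligand gene Wnt10a was at 0.72 and 0.68 FPKM against 8.57 and 7.31 (2.39 ± 0.17, adjusted p = 0.00294), and Wnt7a was at 0.06 and 0 FPKM against 2.37 and 1.52 (1.501 ± 0.24, or 3.98 with a pseudocount of 0.1).

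Sox9, a factor of kidney progenitors and of regenerating tubule, was at 0.86 and 1.1 FPKM in WT_FP and at 5.86 and 9.52 in PKD_FP (2.10 ± 0.28, adjusted p = 0.00987). Sox4 was at 16.4 and 25.5 FPKM against 94.6 and 114 (2.28 ± 0.35, adjusted p = 0.0133). In contrast, Lhx1 was at 7.91 and 6.39 FPKM against 2.62 and 1.9 (−1.32 ± 0.23, adjusted p = 0.0163) and the mitochondrial regulator gene Esrrg at 13.6 and 9.24 against 5.04 and 4.51 (−1.08 ± 0.23, adjusted p = 0.027). The kidney lineage list held 3 higher and 3 lower of 33 tested (9.09% each, against 9.07% and 5.55% of all genes), with a median of −0.07, and of these 6 calls 0, 5, 1 and 0 were kept without WT_FP replicates 1 and 2 and PKD_FP replicates 1 and 2. Of 19 claudins tested, 7 were higher and 0 lower, with 2, 4, 1 and 1 kept in the same order, among them Cldn6, an embryonic claudin, at 1.38 and 1.45 FPKM against 10.7 and 7.01 (2.004 ± 0.23, adjusted p = 0.00677). Cldn3 was at 17.6 and 21.8 FPKM against 79.0 and 64.5 (1.81 ± 0.27, adjusted p = 0.012).

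Mitotic and replication genes were called higher, each by less than 1.32. Of 32 mitosis and kinetochore genes tested, 16 were higher (50%, against 9.07% of all genes) and 0 lower. The list's median was 0.73, with 31 differences above 0. Birc5, which encodes survivin of the chromosomal passenger complex, was at 9.4 and 6.29 FPKM in WT_FP and at 23.9 and 17.1 in PKD_FP (1.28 ± 0.24, adjusted p = 0.0205). Mcm3, a subunit of the replicative helicase, was at 5.45 and 5.23 FPKM against 16.6 and 12.2 (1.26 ± 0.20, adjusted p = 0.0144). Cdk1, the mitotic kinase, was at 5.16 and 3.75 FPKM against 12.1 and 10.7 (1.20 ± 0.21, adjusted p = 0.0184). The ranges of the genotypes were apart in all of these. Of 30 replication genes 10 were higher (33.3%) and 0 lower, with a median of 0.69. Of 27 cell cycle kinases and cyclins 7 were higher (25.9%) and 0 lower, with a median of 0.29. With 1 library left out few of these calls remained: of the 16 mitotic calls, 0, 0, 0 and 1 were kept without WT_FP replicates 1 and 2 and PKD_FP replicates 1 and 2. The mitotic median stayed between 0.66 and 0.84.

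Cdkn1a, which encodes the cell cycle inhibitor p21, was at 10.03 and 19.4 FPKM in WT_FP and at 64.3 and 46.4 in PKD_FP (1.89 ± 0.33, adjusted p = 0.0173). Gdf15, a stress-induced secreted factor, was at 11.96 and 15.7 FPKM against 87.0 and 103 (2.70 ± 0.23, adjusted p = 0.00396). Pmaip1, which encodes the death promoter NOXA, was at 3.81 and 2.52 FPKM against 11.97 and 14.9 (1.80 ± 0.24, adjusted p = 0.00968). The genotypes did not overlap in these genes. Of 25 p53 target genes 8 were higher (32%, against 9.07% of all genes) and 0 lower. The list's median of 0.41 was 0.00 without WT_FP replicate 1. Among the short-lived survival genes 9 of 21 were higher (42.9%) and 0 lower. Calls were kept in 2, 7, 1 and 2 of the p53 targets and in 1, 5, 1 and 1 of the survival genes without WT_FP replicates 1 and 2 and PKD_FP replicates 1 and 2. Bcl2a1b, an anti-apoptotic gene of myeloid cells, was at 1.25 and 1.51 FPKM against 15.0 and 24.4 (3.08 ± 0.41, adjusted p = 0.00977), alongside the macrophage markers. Reads of Bcl2a1b and its near-identical copy Bcl2a1d may have been split between them.

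Cytosolic ribosomal protein genes were uniformly higher. All 52 differences were above 0, between 0.32 and 1.33 with a median of 0.76. Calls numbered 30 higher (57.7%, against 9.07% of all genes) and 0 lower. Rpl12 was at 606 and 722 FPKM in WT_FP and at 1775 and 1563 in PKD_FP (1.33 ± 0.20, adjusted p = 0.012), and Rps12 at 708 and 940.5 against 1942 and 1733 (1.17 ± 0.23, adjusted p = 0.0217). The summed level of the list was 32870 and 37449 FPKM in WT_FP and 64176 and 54140.5 in PKD_FP. Calls were kept for 0 and 10 of the 30 without WT_FP replicates 1 and 2 and for 0 and 2 without PKD_FP replicates 1 and 2, and the median stayed between 0.68 and 0.86. Ribosomal protein genes have many processed pseudogenes, to which their reads can also map. The 40 mitochondrial ribosomal proteins differed from this, with 1 higher, 1 lower (2.5% each, against 9.07% and 5.55% of all genes) and a median of −0.01.

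Of 25 genes of the unfolded protein and ATF4 response, 9 were higher (36%, against 9.07% of all genes) and 2 lower (8%, against 5.55%). The list's median was 0.54. Mthfd2, a mitochondrial folate enzyme that ATF4 induces, was at 3.99 and 3.8 FPKM in WT_FP and at 12.6 and 12.7 in PKD_FP (1.48 ± 0.14, adjusted p = 0.00441). Shmt2, of the same folate pathway, went the other way, at 122 and 82.2 FPKM against 44.6 and 38.9 (−1.24 ± 0.22, adjusted p = 0.0176). Of 36 proteasome subunits 3 were higher (8.33%, against 9.07% of all genes) and 0 lower, and the called ones were Psmb8, Psmb10 and Psme2, which belong to the immunoproteasome and its activator. Psmb10 was at 15.3 and 18.5 FPKM against 35.2 and 39.6 (1.10 ± 0.20, adjusted p = 0.0191). Of 28 heat shock proteins 1 was higher (3.57%), Hspb8, at 6.22 and 8.05 FPKM against 21.1 and 19.2 (1.38 ± 0.32, adjusted p = 0.034), a call lost when any 1 of the FP libraries was left out. Of the 11 ATF4 calls 1, 5, 1 and 1 and of the 3 proteasome calls 0, 1, 0 and 0 were kept without WT_FP replicates 1 and 2 and PKD_FP replicates 1 and 2.

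Cdk9, which encodes a target of the drug, was not called. Cdk9 (chr2:32705782-32712784) was at 22.2 and 26.1 FPKM in WT_FP and at 30.8 and 38.8 in PKD_FP, a difference of 0.50 with a 95% interval of 0.05 to 0.96 (limma, adjusted p = 0.125). The values did not overlap, but the gap between the genotypes was smaller than the gap between the PKD_FP replicates. Its partner gene Ccnt1 was at 4.24 and 9.57 FPKM against 8.72 and 12.2 (0.60, −0.30 to 1.51, adjusted p = 0.325), with overlapping values. Ccnt2 (−0.13, −0.79 to 0.53) and the 7SK-binding protein gene Larp7 (0.31, −0.20 to 0.83) were not called either. Hexim1, whose protein keeps P-TEFb inactive, was at 35.5 and 37.7 FPKM against 23.0 and 30.6 (−0.45, −0.84 to −0.06, adjusted p = 0.111). Its polycystic values were both below the wild-type ones.

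Of 30 genes of P-TEFb and pause release tested, 0 were higher and 1 lower (3.33%, against 5.55% of all genes). Their differences ran from −0.99 to 0.60 with a median of 0.06. The lower gene was the elongation factor gene Ell3, at 8.49 and 7.21 FPKM in WT_FP and at 3.18 and 3.75 in PKD_FP (adjusted p = 0.0208), a call lost without WT_FP replicate 1 or either PKD_FP library. The subunits of the pausing factor NELF lay on both sides of 0, with Nelfb at 27.5 and 31.9 FPKM against 39.5 and 38.5 and Nelfcd at 18.9 and 19.8 against 16.6 and 14.3. Neither was called.

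The cAMP and protein kinase A list, which covers the pathway named in the study's title, held 2 higher and 1 lower of 35 tested, with a median of 0.05. These shares, 5.71% and 2.86%, compare with 9.07% and 5.55% of all genes. Akap12, a scaffold that anchors protein kinase A, was at 5.83 and 10.4 FPKM in WT_FP and at 47.1 and 43.2 in PKD_FP (2.39 ± 0.33, adjusted p = 0.0103). Gnai2, an inhibitory G protein subunit, was at 122 and 154 FPKM against 267 and 272 (0.97 ± 0.20, adjusted p = 0.0263). Pde4c, a phosphodiesterase that breaks down cAMP, was at 67.0 and 85.2 FPKM against 15.1 and 19.9 (−2.06 ± 0.28, adjusted p = 0.0103). The genotypes did not overlap in these 3 genes. The catalytic subunit gene Prkaca was at 32.0 and 37.1 FPKM against 34.0 and 36.4, and the vasopressin receptor gene Avpr2 at 19.5 and 44.8 against 27.8 and 31.4, both with overlapping values. Without WT_FP replicates 1 and 2 in turn, 1 and 3 of the 3 calls were kept, and 0 were kept without either PKD_FP library.

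The polycystin genes were expressed in both genotypes. Pkd1 (chr17:24548689-24596514) was at 4.68 and 5.93 FPKM in WT_FP and at 3.22 and 4.34 in PKD_FP (−0.40, 95% interval −1.08 to 0.27, adjusted p = 0.376). Pkd2 (chr5:104453982-104505819), the channel partner of polycystin-1, was at 41.6 and 40.6 FPKM against 36.8 and 38.2 (−0.13, −0.45 to 0.19, adjusted p = 0.557). Since the mutated gene is not given, these values check no label, and a deletion of part of a gene need not lower its total. Of 25 polycystin and cyst modifier genes tested, 1 was higher (Sec61a1, of the protein translocon) and 1 lower, and both calls were lost when any 1 of the FP libraries was left out. These calls were 4% of the list in each direction, against 9.07% and 5.55% of all genes. The list's median of 0.13 was −0.019 without WT_FP replicate 1. Of 41 cilium and intraflagellar transport genes 2 were higher and 2 lower (4.88% each), with a median of −0.02.

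Transporters of the proximal tubule were lower for several classes of solute. Of 28 proximal tubule markers tested, 17 were lower and 0 higher, all 28 differences were below 0, and the median was −1.96, against 5.55% of all genes called lower. The sodium-phosphate transporter gene Slc34a1 was at 1666 and 769 FPKM in WT_FP and at 267 and 191 in PKD_FP (−2.32 ± 0.45, adjusted p = 0.0227), and Slc34a3 at 34.9 and 19.0 against 2.19 and 3.58 (−2.81 ± 0.34, adjusted p = 0.00789). The sodium-hydrogen exchanger gene Slc9a3, which reclaims bicarbonate, was at 18.6 and 11.8 FPKM against 2.08 and 2.68 (−2.24 ± 0.27, adjusted p = 0.00789). Wild-type values were higher throughout, those of WT_FP replicate 1 above those of replicate 2. The marker median was −1.29 without WT_FP replicate 1 and −2.49 without WT_FP replicate 2, and calls were kept for 2 and 15 of the 17 without these and for 0 and 2 without PKD_FP replicates 1 and 2.

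Amino acid and organic ion carriers were lower as well. Slc38a3, which carries glutamine for ammonia production, was at 37.2 and 39.5 FPKM in WT_FP and at 9.11 and 11.2 in PKD_FP (−1.83 ± 0.17, adjusted p = 0.00416). Slc6a19, the neutral amino acid transporter of the brush border, was at 41.1 and 18.7 FPKM against 4.8 and 4.02 (−2.42 ± 0.39, adjusted p = 0.0152). Slc22a8, an anion transporter that clears drugs, was at 309 and 166 FPKM against 73.1 and 41.8 (−2.02 ± 0.48, adjusted p = 0.0373). Separation was cleanest for Slc38a3, whose call was kept in every alternative run. Of 21 amino acid transporters tested 9 were lower and 0 higher (median −1.17), of 26 organic ion transporters 11 were lower and 1 higher (−1.40), and of 20 glucose, phosphate and lactate transporters 8 were lower and 0 higher (−1.47). Calls kept without WT_FP replicates 1 and 2 and PKD_FP replicates 1 and 2 were 1, 7, 1 and 1 of the 9, 0, 10, 1 and 1 of the 12, and 3, 8, 0 and 2 of the 8.

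Transcripts for glucose production and fat oxidation, both major tasks of the proximal tubule, were lower for part of the genes tested. Of 12 gluconeogenesis and fructose genes 7 were lower (58.3%, against 5.55% of all genes) and 0 higher, with a median of −1.58. Some of them, such as Pck1 and G6pc, are also on the proximal tubule list. G6pc, which releases free glucose, was at 142 and 60.6 FPKM in WT_FP and at 13.3 and 14.3 in PKD_FP (−2.67 ± 0.44, adjusted p = 0.0155). Pcx, which turns pyruvate into oxaloacetate, was at 116 and 68.5 FPKM against 21.8 and 12.2 (−2.38 ± 0.43, adjusted p = 0.0191). Acox2, a peroxisomal oxidase, was at 41.1 and 36.7 FPKM against 6.34 and 4.32 (−2.67 ± 0.32, adjusted p = 0.00789). Of 36 fatty acid oxidation genes 16 were lower (44.4%) and 0 higher, with a median of −0.93. With the replicate number as a block 3 of these 16 calls were kept, and with median-of-ratios scaling 5. Glycolysis held 2 higher and 2 lower of 22 tested (9.09% each, against 9.07% and 5.55% of all genes). Its lactate exporter gene Slc16a3 was at 0.86 and 2.25 FPKM against 6.87 and 10.8 (1.97 ± 0.34, adjusted p = 0.0173). Of the 7 gluconeogenesis calls 0, 6, 0 and 0 and of the 16 fatty acid oxidation calls 1, 6, 1 and 0 were kept without WT_FP replicates 1 and 2 and PKD_FP replicates 1 and 2.

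Mitochondrial energy genes were lower by less. Of 60 oxidative phosphorylation genes 16 were lower (26.7%, against 5.55% of all genes) and 0 higher. Of the differences, 59 were below 0, and the median was −0.59. Sdhb, an iron-sulfur subunit of complex II, was at 481 and 447 FPKM in WT_FP and at 206 and 157 in PKD_FP (−1.36 ± 0.18, adjusted p = 0.00891). Ndufs1, a core subunit of complex I, was at 77.4 and 59.5 FPKM against 31.0 and 30.9 (−1.11 ± 0.21, adjusted p = 0.0208). Of 26 genes of the tricarboxylic acid cycle and its feeders, 15 were lower and 0 higher, with a median of −0.88, and 0, 5, 1 and 0 of the calls were kept without WT_FP replicates 1 and 2 and PKD_FP replicates 1 and 2. In the same order, 0, 3, 2 and 0 of the 16 oxidative phosphorylation calls were kept, and that list's median stayed between −0.63 and −0.46. These lists moved with the proximal tubule marker sum (32330 and 29368 against 7678 and 7570 FPKM), of which Kap was a large part. The part of cell composition in these lists was not tested.

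**Figure D4:**
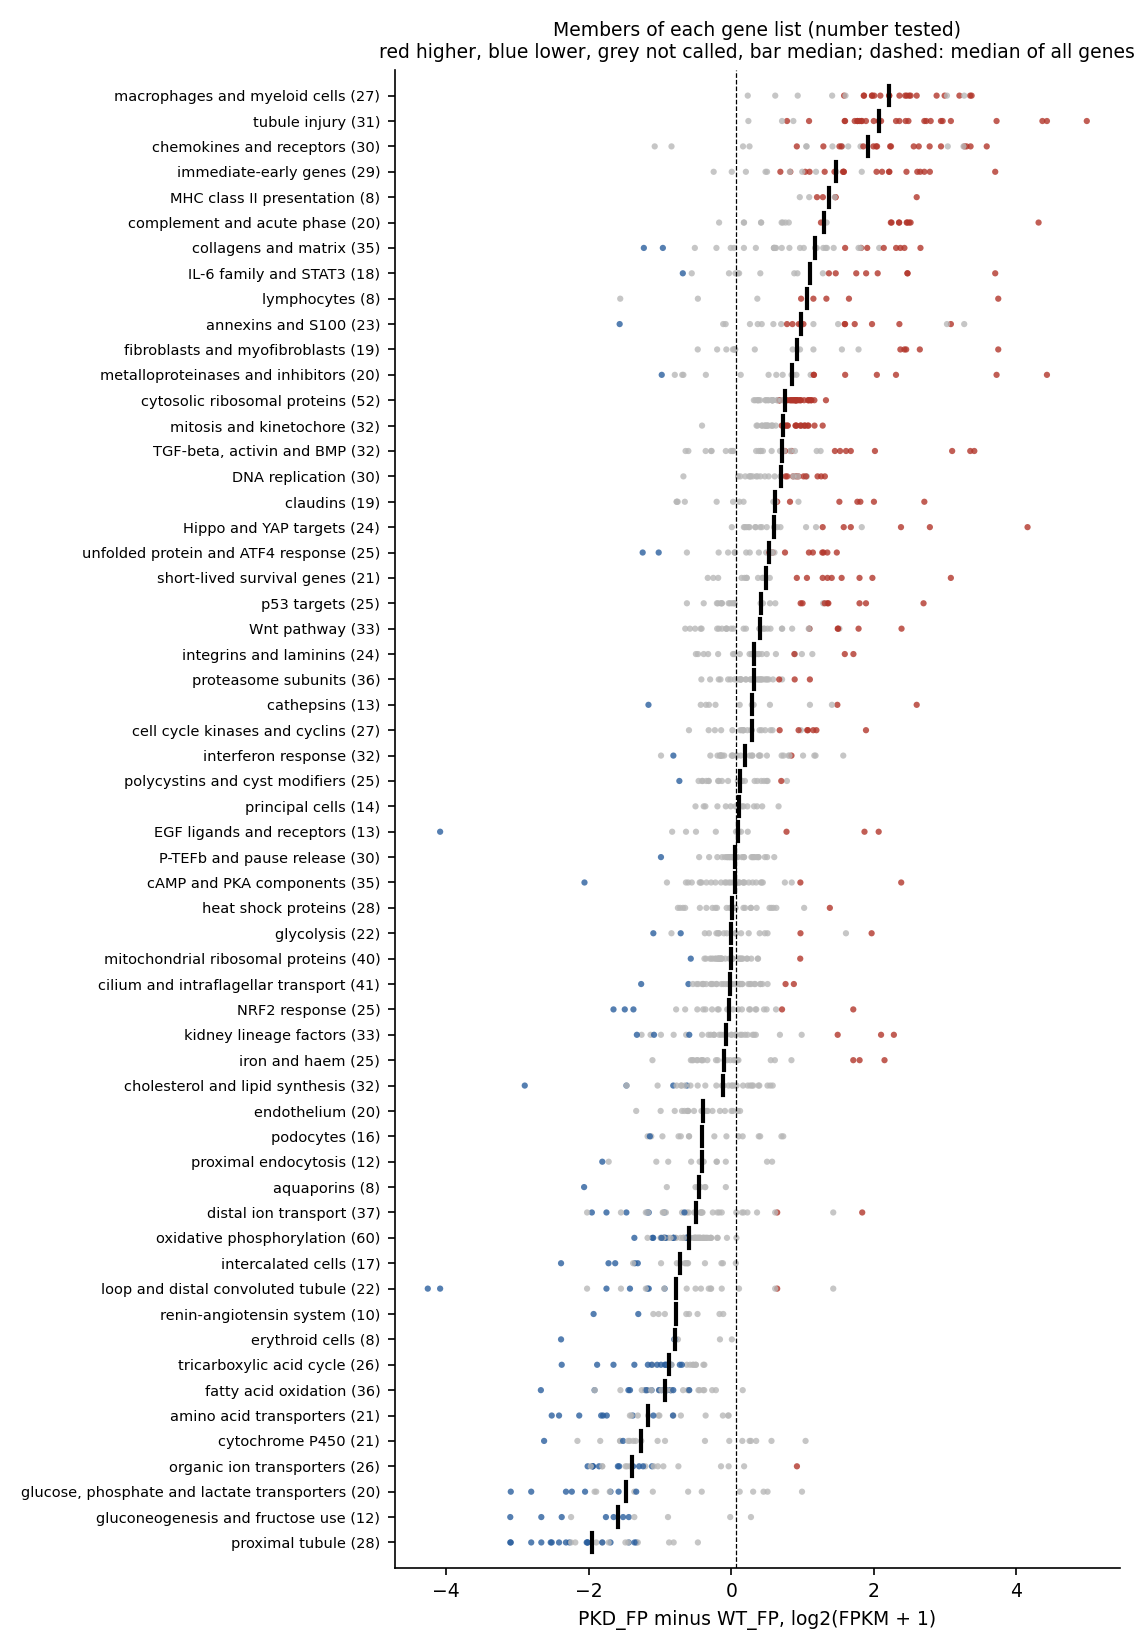
PKD_FP minus WT_FP difference in log2(FPKM + 1) for the tested members of each list (points, red called higher, blue called lower, grey not called) with the list median (bar) and the median of all genes at 0.07 (dashed line). Macrophage and tubule injury lists lie farthest to the right (2.22 and 2.07) and the proximal tubule list farthest to the left (−1.96), and the P-TEFb list is centred on 0.06.

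Distal segments gave mixed results. Slc12a3, the thiazide-sensitive transporter of the distal convoluted tubule, was at 212 and 114 FPKM in WT_FP and at 66.5 and 31.1 in PKD_FP (−1.75 ± 0.40, adjusted p = 0.035). Slc12a1, the furosemide-sensitive transporter of the thick ascending limb, was at 365 and 452 FPKM against 145 and 222 (−1.18 ± 0.26, adjusted p = 0.0318). Umod, of the same limb, was at 1291 and 1068 FPKM against 980.0 and 909 and was not called (−0.32 ± 0.18, adjusted p = 0.29). Polycystic values were below wild-type ones in all of these. Trpv6, an epithelial calcium channel, went the other way, at 1.01 and 1.43 FPKM against 5.74 and 8.28 (1.84 ± 0.32, adjusted p = 0.0181). Trpv6 belongs to the distal ion transport list, not to the loop and distal convoluted tubule markers. That transport list held 2 higher and 7 lower of 37 tested (5.41% and 18.9%), with a median of −0.50. Of 22 loop and distal convoluted tubule markers 7 were lower and 1 higher, with a median of −0.78, and 2, 4, 2 and 2 of these calls were kept without WT_FP replicates 1 and 2 and PKD_FP replicates 1 and 2.

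In the collecting duct, of 17 intercalated cell markers 5 were lower and 0 higher, with a median of −0.72, and 1, 3, 0 and 1 of the calls were kept without WT_FP replicates 1 and 2 and PKD_FP replicates 1 and 2. Slc4a1, the anion exchanger of acid-secreting cells and of red cells, was at 19.9 and 29.97 FPKM in WT_FP and at 2.89 and 5.05 in PKD_FP (−2.39 ± 0.31, adjusted p = 0.00891). Of 14 principal cell markers 0 were called in either direction by limma and 1 had an unadjusted p under 0.05, and the list's median of 0.11 was −0.30 without WT_FP replicate 1 and 0.61 without WT_FP replicate 2. The water channel gene Aqp2 was at 386 and 1344 FPKM against 548 and 854, higher in replicate 2 of both genotypes. Ren1, which encodes renin, was at 67.4 and 59.3 FPKM against 17.1 and 14.6 (−1.93 ± 0.37, adjusted p = 0.0222), a call lost when any 1 of the FP libraries was left out.

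The genotype difference under flavopiridol was next set beside the difference under DMSO, which rests on other libraries and shares with it only the estimate of spread. Over the same 13919 genes the DMSO comparison called 2047 higher (14.7%) and 1064 lower (7.64%). Genes called higher in both numbered 870, which is 68.9% of the calls under FP and 42.5% of those under DMSO. Genes called lower in both numbered 453, or 58.6% and 42.6%. Of the calls under FP, 96% had the same sign under DMSO, against 73.3% of all genes, and the differences correlated across genes with r = 0.754. A single gene, Gpam, was called in opposite directions, lower under FP and higher under DMSO.

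Lcn2, Havcr1 and Mmp7 were higher in both settings, and their differences under FP were smaller by amounts that did not pass the test. Lcn2 differed by 4.99 under FP and by 6.72 under DMSO, where it was at 9.06 and 6.44 FPKM in WT_DMSO and at 1125 and 741 in PKD_DMSO. Havcr1 differed by 4.37 and 6.63, and Mmp7 by 3.73 and 6.01. The difference between the 2 genotype effects was −1.73 ± 0.45 for Lcn2 and −2.28 ± 0.62 for Mmp7 (adjusted p = 0.385 for both), and −2.26 ± 0.79 for Havcr1 (adjusted p = 0.416). For Lcn2 and Havcr1 the WT_FP values (18.0 and 19.3, 5.14 and 0.56 FPKM) were also above the WT_DMSO values (9.06 and 6.44, 0.26 and 0.27 FPKM).

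Tested gene by gene, 0 of 13919 genes had a genotype effect that differed between FP and DMSO (limma, smallest adjusted p = 0.334), with 1556 at an unadjusted p under 0.05 (11.2%). The median standard error of this difference was 0.31, and differences as large as the −3.75 of Ugt1a10 did not pass. No gene passed in any alternative run apart from the one without a low-value filter, where 2 did. Ugt1a10, Upp2, Fmo2 and Scd1, among the 12 largest decreases under FP, differed by 0.20, −0.46, −0.17 and −0.11 under DMSO, and the test of the difference gave an adjusted p of 0.385 for each. Under DMSO the values of these genes overlapped between the genotypes, for example Fmo2 at 35.2 and 65.4 FPKM in WT_DMSO and 43.4 and 41.9 in PKD_DMSO.

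The 5 genes with the smallest p for that difference were Hbb-bt, Gsta1, Hba-a2, Mir7049 and Gpam (adjusted p = 0.334 for each). The globin gene Hbb-bt (chr7:103812524-103813923) was at 104 and 117 FPKM in WT_FP and at 59.8 and 67.0 in PKD_FP, against 80.2 and 87.3 in WT_DMSO and 6.1 and 9.04 in PKD_DMSO. Hba-a2 (chr11:32296492-32297310) was at 395 and 411 FPKM in WT_FP and at 213 and 250.5 in PKD_FP, against 443 and 400 in WT_DMSO and 51.0 and 64.5 in PKD_DMSO. PKD_DMSO was thus the lowest group for both globins, whose copies are near-identical, so that reads may have been split between them. Gsta1 (chr9:78230669-78242683), a glutathione transferase, was at 12.9 and 15.5 FPKM in WT_FP and at 18.9 and 17.4 in PKD_FP, against 4.25 and 2.73 in WT_DMSO and 72.4 and 45.4 in PKD_DMSO. Gpam (chr19:55067635-55127319), which starts triglyceride synthesis, was at 7.3 and 6.46 FPKM in WT_FP and at 2.22 and 1.32 in PKD_FP, against 4.04 and 5.3 in WT_DMSO and 8.54 and 10.6 in PKD_DMSO. Its difference was −1.53 ± 0.23 under FP and 0.90 ± 0.23 under DMSO. The microRNA entry Mir7049 was at 2.72 and 2.96 FPKM in WT_FP and listed at 0 in the other 6 libraries. It reached the level filter only through WT_FP, which fixed the direction of its difference under FP.

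By list, oxidative phosphorylation had a median of −0.59 under FP and −1.14 under DMSO, with 16 and 52 of 60 genes called lower. Of these 60 genes, 29 had an unadjusted p under 0.05 for the difference of the effects, beside 11.2% of all genes, but 0 passed after adjustment. Cytosolic ribosomal proteins had medians of 0.76 and 0.36, with 30 and 12 of 52 called higher, and mitotic genes 0.73 and 0.33, with 16 and 5 of 32. Fatty acid oxidation had medians of −0.93 and −0.39, with 16 and 9 of 36 called lower. Complement and acute-phase genes had 1.30 and 2.81, tubule injury 2.07 and 2.74, and macrophages 2.22 and 2.45. P-TEFb genes had 0.06 and 0.18 and cAMP genes 0.05 and 0.18. These medians were not tested against each other.

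**Figure D5:**
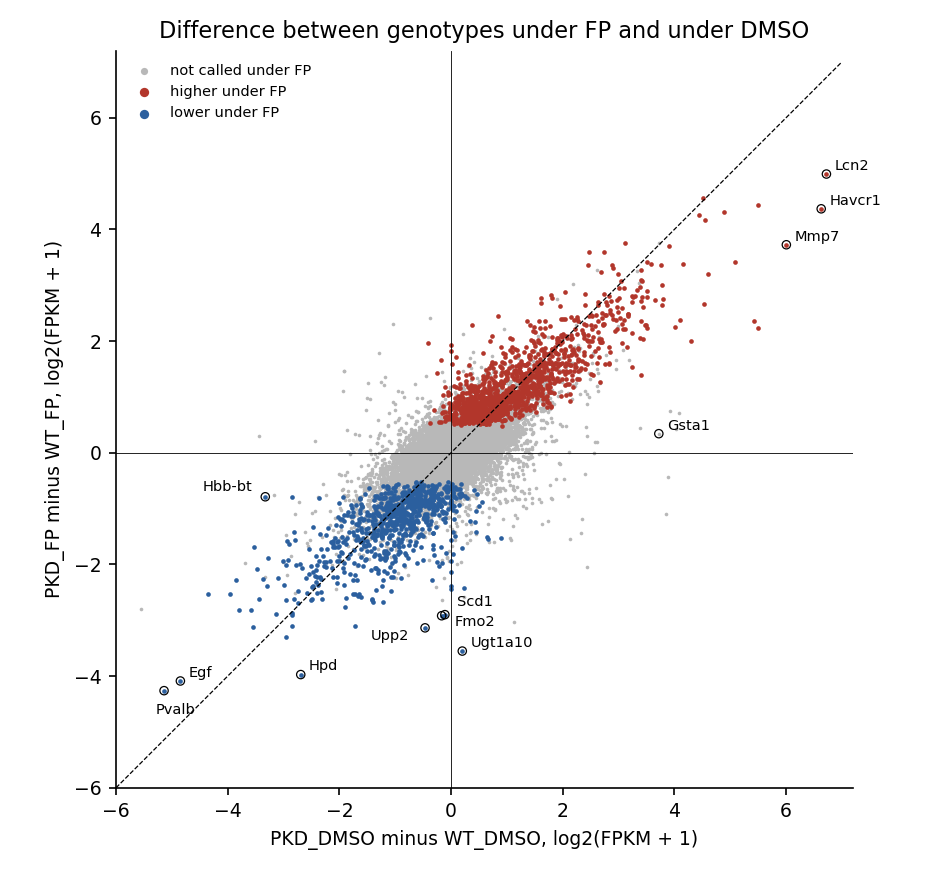
PKD minus WT difference of each of 13919 genes under DMSO (horizontal axis) and under FP (vertical axis), both in log2(FPKM + 1), with genes called under FP in red (higher) and blue (lower), and the line of equality dashed. Most called genes lie in the quadrants of equal sign (96%), Lcn2, Havcr1 and Mmp7 lie below the line, and Ugt1a10, Fmo2, Upp2 and Scd1 lie near 0 on the DMSO axis.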

How the data were processed

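Poly(A) RNA of 8 whole-kidney libraries was measured, 2 per group. Titles gave the groups and the replicate numbers. The authors deposited FPKM values for 20245 entries per library. No unit stands in the file headers, and FPKM was inferred from the values. The submitters' processing notes list Bowtie2, DESeq2 and mm10 and state neither a version nor a purpose. The counting tool and annotation: not given in the sources used here. Left out were 4 entries of 2 repeated symbols and 1 entry whose symbol is a dash.

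Genes with 1 FPKM or more in at least 2 of the 4 FP libraries were kept. A mean per group was fitted to log2(FPKM + 1) of the 8 libraries by limma (3.58.1, R 4.3.3) (settings trend and robust, two-sided tests, Benjamini-Hochberg adjustment, threshold 0.05). The fit had 4 residual degrees of freedom, 6.906 after moderation. A test for counts had been planned in case the files held counts. With 2 libraries against 2 a permutation test cannot give a two-sided p below 0.33, so none was run. The fit was checked on simulated data.

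Genes were named by rule: 7 fixed genes of P-TEFb and the polycystins, the 12 per direction with the largest difference among called genes whose groups do not overlap and whose mean log2(FPKM + 1) is 1 or more, up to 5 called members per list, and the 5 with the smallest p for the difference between FP and DMSO. Predicted genes, microRNAs (but for the last 5) and small nucleolar RNAs were skipped, and not every gene the rule named is reported here. Adipoq, Ucp1, Nelfb, Nelfcd, Prkaca, Avpr2, Umod, Aqp2 and the motifs were chosen with their values in view. The comparison, lists and members were chosen with earlier results of these data known. Lists are described by counts and medians, with no test. Coordinates and promoters are from RefSeq (GRCm38.p6, the assembly of mm10), by symbol, for 13869 of 13919 genes.

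Alternatives were other filters (none, or 5 FPKM), a pseudocount of 0.1, median-of-ratios and quantile scaling, only the 4 FP libraries, the replicate number as a block, no trend or robust setting, each library left out, and, added after the values were seen, a correction for transcript length and GC content (known for 96.8% of genes).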

Additional observations from a re-analysis of the deposited data

How the results depend on the processing

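Of the 1262 higher and 773 lower calls, 0 turned direction in any alternative run, but their number depended on the libraries. Fitted to only the 4 FP libraries, the calls were 640 higher and 363 lower. With each of the 8 libraries left out in turn, higher calls ranged from 104 to 1198 and lower calls from 55 to 729. The lowest counts came without an FP library, where the genotype is left with 1 library that is assumed to vary like the other groups. The replicate block gave 683 higher and 459 lower calls. The deviations of replicate 1 from 2 correlated at 0.511 between WT_FP and PKD_FP, and between −0.536 and 0.156 in the other pairs of groups, so the numbers share a direction in the FP libraries but the labels give them no meaning as pairs. Higher genes made up 62% of the calls, 57.3% with median-of-ratios scaling, 57% with quantile normalization and 57.6% with the length and GC correction. Genes whose genotype effect differed between FP and DMSO numbered 2 without a low-value filter and 0 in every other alternative that holds the DMSO libraries, each library left out included. Ccnt2 turned to 0.12 without PKD_FP replicate 1 (range −0.38 to 0.12 with 1 library left out). Medians of lists near 0 often changed sign with 1 library left out, as for interferon response (−0.12 to 0.43), urothelium (−0.65 to 1.52), cAMP (−0.14 to 0.22), P-TEFb (−0.03 to 0.21) and kidney lineage factors (−0.28 to 0.23). Others that changed sign included polycystins and cyst modifiers (−0.019 without WT_FP replicate 1, range to 0.16, and −0.015 with the length and GC correction), lymphocytes (−0.20 without PKD_FP replicate 2, range to 1.35), adrenal cortex (0.0021 without a filter) and skeletal muscle (−0.042 without a filter, −0.15 without PKD_FP replicate 1, range to 0.64). The cause was not tested. Depth is unknown, so what it limits could not be set.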

Other observations

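Sex-biased kidney genes were called in 1 direction only, lower. Of 4 sex-linked genes tested, 0 were called, with differences from −0.28 to −0.09. The sex-linked list summed to 60.7 and 69.1 FPKM in WT_FP and to 49.4 and 70.5 in PKD_FP. Of 7 genes that female mouse kidney favours, 5 were lower and 0 higher, with a median of −1.75. Prlr, the prolactin receptor, was at 58.0 and 65.8 FPKM in WT_FP and at 15.9 and 13.5 in PKD_FP (limma, −2.001 ± 0.24, adjusted p = 0.00811), and Hao2, a hydroxyacid oxidase, at 225 and 191 against 53.04 and 28.97 (−2.37 ± 0.34, adjusted p = 0.0117). Of 10 male-biased genes 2 were lower and 0 higher, among them Kap (−2.27 ± 0.38, adjusted p = 0.0161), whose call was lost when any 1 of the FP libraries was left out. Iron and haem genes held 3 higher (12%, against 9.07% of all genes) and 0 lower of 25, with a median of −0.09. Mt2, a metal-binding metallothionein, was at 108 and 82.9 FPKM against 381 and 472 (2.15 ± 0.42, adjusted p = 0.0222), and Hmox1, which breaks down haem, at 12.1 and 4.49 against 29.9 and 24.03 (1.71 ± 0.39, adjusted p = 0.0338), or 1.09 without WT_FP replicate 2. The call of Hmox1 was lost in 10 of 17 alternatives, among them without WT_FP replicate 2 and without either PKD_FP library. Of 23 annexin and S100 genes 11 were higher and 1 lower, with a median of 0.98, and 0, 9, 1 and 0 of these 12 calls were kept without WT_FP replicates 1 and 2 and PKD_FP replicates 1 and 2. Of 8 erythroid genes 3 were lower and 0 higher, with a median of −0.79. Cytochrome P450 genes had a median of −1.26 but only 2 of 21 were called, both lower (9.52%, against 5.55% of all genes). The clearer was Cyp2d12 at 15.0 and 10.3 against 0.59 and 1.97 FPKM (−2.63 ± 0.36, adjusted p = 0.0103).

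Of 15 adipocyte genes tested 3 were lower and 0 higher, and the list's median of −1.22 was −3.58 without WT_FP replicate 1 and 0.24 without WT_FP replicate 2, the library with the high fat markers. The 3 calls were kept in 2, 3, 0 and 0 genes without WT_FP replicates 1 and 2 and PKD_FP replicates 1 and 2. Dgat2, which completes triglyceride synthesis, was nearly equal in the WT_FP libraries, at 75.2 and 73.9 FPKM in WT_FP and 14.2 and 11.2 in PKD_FP (−2.47 ± 0.38, adjusted p = 0.0134). Pnpla2, a triglyceride lipase, was at 70.1 and 126 FPKM against 40.6 and 39.0 (−1.22 ± 0.26, adjusted p = 0.029), or −0.80 without WT_FP replicate 2. Of 32 cholesterol and lipid synthesis genes 4 were lower and 0 higher, led by Scd1 and Acacb, the latter at 6.71 and 11.04 against 2.5 and 2.45 FPKM (−1.47 ± 0.24, adjusted p = 0.0144). The part of fat tissue in these values was not tested.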
